A study of Mus musculus with 20 samples.

Results

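This account covers 37 genes that monocytes and macrophages have in common, followed in the heart ventricles of old and young mice. The members were a list of gene symbols, given by their known place in these cells and looked up in the array's annotation. Of the 37 genes, 27 were detected and tested among 9275 genes in all, where detection means a log2 signal above 4 in at least 10 of the 20 arrays for a probe set annotated to 1 gene. The other 10 members did not reach that level and are described by their signal. The old group was made up of 10 males aged 25 to 28 months, and the young group of 10 males aged 4 to 6 months. All were of the inbred strain C57BL/6J, kept in the same barrier facility, with no transgene, deletion or agent named in the labels. Total RNA of unsorted frozen ventricle was hybridised to Affymetrix MOE430 2.0 arrays, 1 per mouse, which read each transcript with sets of short probes near its 3′ end. Values below are the deposited log2 signals, and a difference is old minus young on that log2 scale.

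Monocytes are blood cells that leave the marrow and can enter a tissue, and macrophages are the phagocytes that live there. The heart holds macrophages seeded before birth that renew themselves locally, beside others that descend from blood monocytes. Both cell types bind antibody-coated and microbial particles through surface receptors, signal through small adaptor proteins, engulf the particle with a remodelled actin skeleton, and digest it in lysosomes with the help of an oxidase. Several members are also made by other blood cells. Ptprc, Cd53, Cd52, Coro1a, Lcp1, Itgb2 and Laptm5 are made by lymphocytes too, and Cyba is made widely.

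The arrays had medians of 3.07 to 3.20, and ventricular muscle genes were near the top of the scale in both groups, with Myh6, the main myosin heavy chain of the adult mouse heart, at 15.90 ± 0.06 in old arrays and 15.90 ± 0.09 in young arrays (mean ± SD, n = 10 each). Some arrays stood apart. Myl7, an atrial myosin light chain, lay above 10 in 7 old arrays (replicates 3, 4, 5, 6, 8, 9 and 10) and at 2.38 to 2.44 in young arrays, while every label reads ventricle. Old replicate 8 had a summed linear signal of 886 over the T and natural killer cell markers, against 55.5 to 63.8 in the other old arrays and 57.5 to 62.2 in the young ones. Old replicate 9 had 12019.8 over the platelet markers, against 779 to 2349.9 in the other old arrays and 293 to 570 in the young ones. The arrays' deviations from their group means also fell into 5 sets of 4, each with 2 old and 2 young arrays, which no label names. What these features contribute to the results was not tested, and values without the arrays or within the sets are given where they matter.

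Genes of monocytes and macrophages were higher in old ventricles across most of the functions on the list. In the limma fit over all genes, 20 of the 27 tested members were higher in old, 0 were lower and 7 did not pass (Benjamini-Hochberg adjusted p under 0.05). That is 74.1% of the tested members, against 11.2% of the 9275 genes tested that were called higher and 7.49% that were called lower. The 7 were Fcgr3, Cd14, Clec7a, Ms4a7, Cybb, Cyba and Pld4. All 27 estimates were above 0, as were 51.3% of all estimates. They ran from 0.30 for Cyba to 4.59 for Lgals3, with a median of 0.97 (1.96-fold on the linear scale) beside 0.01 over all genes tested. In unsorted tissue, fewer cells of a type in one group and less RNA per cell cannot be told apart.

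The filter on low signals can favour genes that are high in 1 group. Ccr2, above 4 in no young array, passed through the old arrays alone and had to differ. Without Ccr2, 19 of 26 tested members were called higher (73.1%), with a median difference of 0.96. With no filter, all 37 members entered the fit over 18193 genes, where 25 were called higher, 1 lower and 11 neither. In that fit 7.15% of all genes were called higher and 16.7% lower. A difference above 1 together with a call was seen for 11 of the 26 members other than Ccr2, against 2.7% of all genes. The 10 old arrays were all above the 10 young arrays for 4 of those 26 (Itgb2, Lcp1, Coro1a and Lgals3), against 1.36% of all genes, and for Ccr2.

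**Figure D1:**
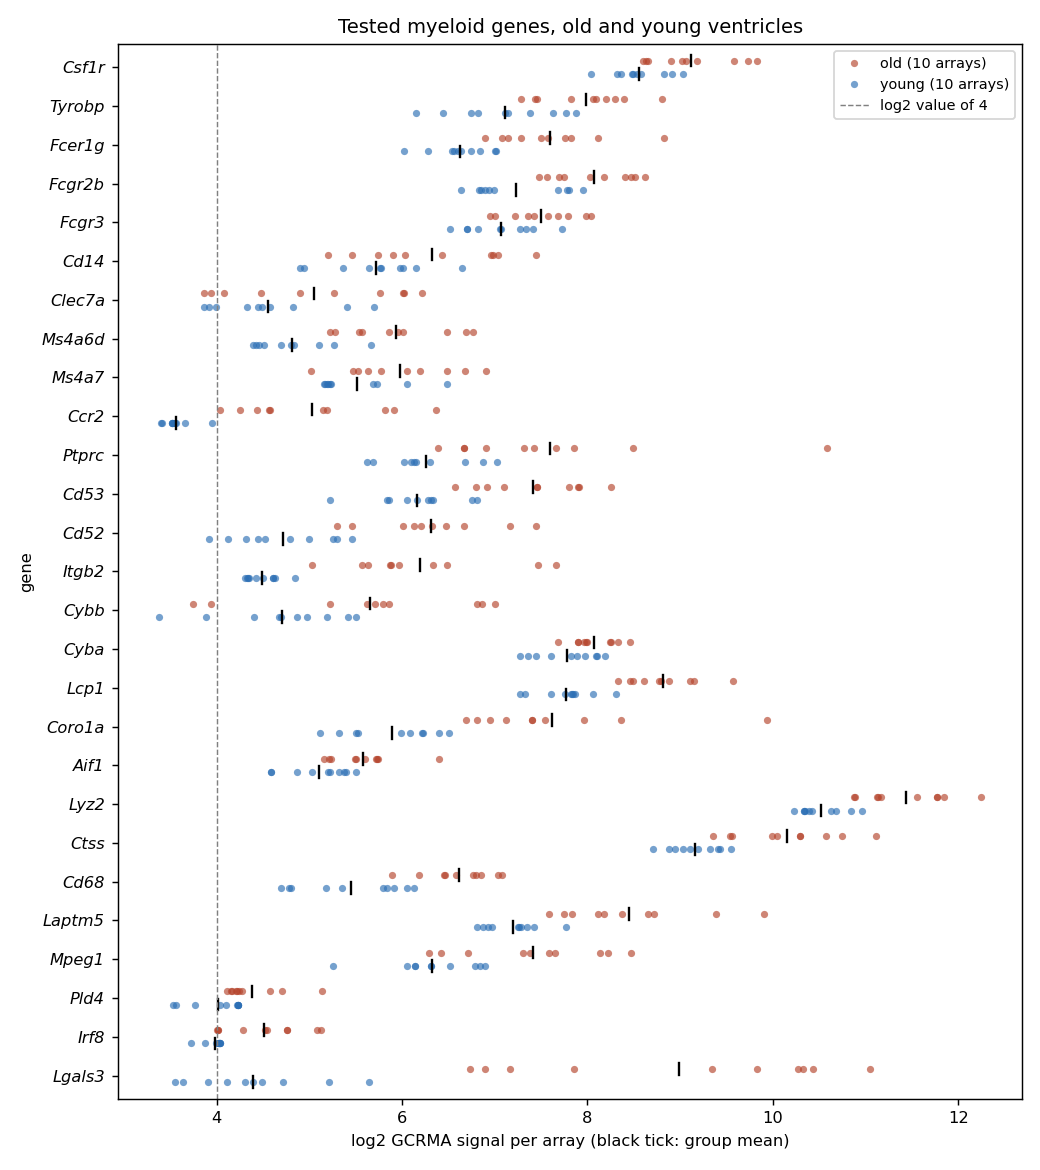
Log2 signal (horizontal axis) of each tested myeloid gene in the 10 old arrays (red, upper row of each gene) and the 10 young arrays (blue, lower row), with a black tick at each group mean and a dashed line at the log2 value of 4 used for detection. The old mean lies to the right of the young mean for all 27 genes, and for Ccr2, Itgb2, Lcp1, Coro1a and Lgals3 the dots of the groups do not overlap.

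Spi1 and Irf8, the transcription factors of the list, are known to set up the monocyte and macrophage programme, and the protein of Spi1 binds purine-rich DNA with a GAGGAA core. RefSeq promoters of the GRCm38.p6 assembly, from 250 bases before to 50 bases after a start, were at hand for 28 members with 35 promoters. The letters GAGGAAG stood on either strand in 9 of these 35 promoters (25.7%), against 13.6% of all 32851 promoters of that length. The shorter GAGGAA, which lies inside the longer motif, stood in 48.6% of the members' promoters, against 28.3% of all. A match is a description of letters and not a binding site. Of the tested members that rose in old ventricles, Cd53 (chr3:106790100-106790399, minus strand), Laptm5 (chr4:130913066-130913365, plus strand) and Ctss (chr3:95526536-95526835, plus strand) held GAGGAAG. Their promoters are printed as examples of these letters close to a start, and not as a trait of the called genes. Of the 28 members with a promoter, 8 held the motif, while most called members did not. Lgals3, Lcp1 and Ccr2, which had smaller p values, held none. Whether the motif goes with the difference was not tested. The sequences run 5′ to 3′ on the strand of the gene, and the capitals mark the motif, which reads CTTCCTC in all 3 because it lies on the opposite strand. Its leading base is at 8 in Cd53, -39 in Laptm5 and -1 in Ctss, counted from 1 at the start base, with negative numbers before it.
Cd53: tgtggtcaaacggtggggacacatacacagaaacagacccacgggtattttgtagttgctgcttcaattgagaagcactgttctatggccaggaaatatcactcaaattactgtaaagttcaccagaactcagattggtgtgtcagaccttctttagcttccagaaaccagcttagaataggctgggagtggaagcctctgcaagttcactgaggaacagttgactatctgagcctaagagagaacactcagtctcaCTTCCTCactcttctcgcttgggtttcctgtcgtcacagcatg
Laptm5: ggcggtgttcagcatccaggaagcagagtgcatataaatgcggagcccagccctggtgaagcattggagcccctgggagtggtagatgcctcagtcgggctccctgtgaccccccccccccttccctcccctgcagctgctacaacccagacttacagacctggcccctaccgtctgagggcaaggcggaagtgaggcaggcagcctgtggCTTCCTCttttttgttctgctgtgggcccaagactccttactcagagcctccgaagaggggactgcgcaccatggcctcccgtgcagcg
Ctss: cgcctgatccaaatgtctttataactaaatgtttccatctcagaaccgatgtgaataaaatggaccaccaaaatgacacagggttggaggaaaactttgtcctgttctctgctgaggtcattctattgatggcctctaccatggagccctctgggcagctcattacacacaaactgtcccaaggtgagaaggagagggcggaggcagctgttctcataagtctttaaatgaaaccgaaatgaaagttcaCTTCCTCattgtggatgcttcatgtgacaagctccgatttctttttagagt
The motif also stood in the promoters of Pld4 and Fcgr3, which were tested and not called, and of the untested Fcgr1, Itgam and Trem2.

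Csf1r encodes the receptor for the growth factors CSF1 and IL-34, on which most tissue macrophages depend. Its log2 signal ran from 8.60 to 9.83 in old arrays (median 9.04), against 8.04 to 9.03 in young arrays (median 8.51). The difference was 0.56 ± 0.16 (SE, limma adjusted p = 0.0197), and the groups overlapped, with 5 of 10 old arrays above every young one. Its other probe sets gave 0.45 (adjusted p = 0.0288 over all passing probe sets) and 0.36 (adjusted p = 0.0659).

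Among the Fc receptors, which bind the stem of antibodies, and their adaptors, 3 of 4 tested genes rose. Tyrobp encodes an adaptor that carries an immunoreceptor tyrosine-based activation motif and passes on signals of many myeloid receptors. It ran from 7.28 to 8.81 in old arrays (median 8.08), against 6.15 to 7.88 in young arrays (median 7.12), a difference of 0.88 ± 0.22 (SE, adjusted p = 0.00739). Fcer1g, the signalling chain shared by activating Fc receptors, ran from 6.89 to 8.83 in old (median 7.54), against 6.03 to 7.01 in young (median 6.62). Of the old arrays, 9 lay above every young one for Fcer1g, and its difference was 0.97 ± 0.19 (SE, adjusted p = 0.00122).

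Fcgr2b, the inhibitory receptor for IgG that B cells also carry, ran from 7.48 to 8.62 in old (median 8.10), against 6.63 to 7.96 in young (median 6.96). It rose by 0.84 ± 0.19 (SE, adjusted p = 0.00451), and its 4 passing probe sets gave 0.51 to 0.87. Fcgr3, an activating IgG receptor of low affinity, overlapped widely, with 6.95 to 8.04 in old (median 7.50) and 6.52 to 7.72 in young (median 7.06). Its difference was 0.44, with a 95% interval of 0.10 to 0.78, and did not pass the test (adjusted p = 0.0616). Fcgr3 passed when old replicate 3, old replicate 4 or young replicate 11 was left out, with a lowest adjusted p of 0.0265. Fcgr1, the high-affinity IgG receptor, was above 4 in 6 old arrays and 1 young array and was not tested. Its signal was 3.82 to 5.69 in old (median 4.19), against 3.17 to 4.04 in young (median 3.87).

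Of the other surface receptors, 1 of 4 tested genes was called. Ms4a6d, which encodes a tetraspan membrane protein of macrophages, ran from 5.22 to 6.76 in old (median 5.91), against 4.39 to 5.66 in young (median 4.75). It was higher by 1.12 ± 0.20 (SE, adjusted p = 0.000608), with 6 old arrays above every young one. Its relative Ms4a7 overlapped across nearly the whole range, with 5.02 to 6.91 in old (median 5.92) and 5.16 to 6.48 in young (median 5.22), and did not pass (difference 0.46, 95% interval 0.004 to 0.92, adjusted p = 0.153). Cd14, the co-receptor for bacterial lipopolysaccharide, ran from 5.21 to 7.45 in old (median 6.23), against 4.90 to 6.65 in young (median 5.77). Its difference of 0.60 (95% interval 0.04 to 1.16) did not pass either (adjusted p = 0.126).

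Clec7a, the receptor for fungal β-glucans, had the highest adjusted p of the tested members. It ran from 3.86 to 6.22 in old (median 5.08), against 3.86 to 5.69 in young (median 4.47), a difference of 0.50 with a 95% interval of -0.16 to 1.16 (adjusted p = 0.297). Clec7a was also the 1 tested member not higher in old in all 5 array sets, at -0.22 in set 2. For the other 26 members old was higher in each set, against 19.1% of all genes tested. Ccr2 is among these 26 and passed the filter through the old arrays alone, so its part in the count is a description.

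Clec4n, the related receptor for fungal mannans, was above 4 in 5 old arrays and 0 young ones, with 3.08 to 5.47 in old (median 3.95) and 2.86 to 3.62 in young (median 3.10). Without the filter Clec4n was called higher, with a difference of 0.95 (adjusted p = 0.0264). Cd84, an adhesion receptor of leukocytes, ran from 3.09 to 5.16 in old (median 4.07), against 2.32 to 3.03 in young (median 2.93). All 10 old arrays lay above all young ones for Cd84, although 5 of them stayed under 4, and without the filter it was called higher (difference 1.36, adjusted p = 0.000960). Trem2, a lipid-sensing receptor that signals through Tyrobp, lay at 2.92 to 3.13 in old (median 3.06) and 3.03 to 3.45 in young (median 3.21). Trem2 was above 4 in no array. Without the filter it was called lower, with a difference of -0.17 (adjusted p = 0.0267) among signals that all lay under 4.

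Ccr2, the chemokine receptor with which classical monocytes leave the marrow and enter inflamed tissue, separated the groups fully. It ran from 4.04 to 6.37 in old arrays (median 4.86), against 3.40 to 3.95 in young arrays (median 3.52). All 10 old arrays were above 4 and no young array was, so Ccr2 could pass the filter in old alone and its difference of 1.47 ± 0.23 (SE, adjusted p = 0.000157) is given as a description. GCRMA holds undetected transcripts near a low value that differs by probe set, so the size of such a difference is rough. Cx3cr1, the fractalkine receptor of patrolling monocytes and many resident macrophages, was above 4 in no array. Its signal was 3.004 to 3.73 in old (median 3.18) and 3.12 to 3.19 in young (median 3.17), and no level could be read from it.

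The membrane proteins shared by most leukocytes rose together, by 1.26 to 1.70 in 4 of 4 tested genes. Itgb2, the β chain of the leukocyte integrins, ran from 5.03 to 7.66 in old (median 5.92), against 4.31 to 4.85 in young (median 4.46), with no overlap. It rose by 1.70 ± 0.25 (SE, adjusted p = 5.68e-05). Its partner Itgam, the αM chain of monocytes, macrophages and neutrophils, was not tested. Itgam was above 4 in 2 old arrays and 0 young ones, with 2.72 to 5.03 in old (median 3.44) and 2.35 to 2.88 in young (median 2.56), so that 8 old arrays lay above every young one. It was called higher without the filter (difference 0.91, adjusted p = 0.0110).

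Cd52 encodes a small surface glycoprotein of lymphocytes and monocytes. It ran from 5.30 to 7.44 in old (median 6.26), against 3.92 to 5.46 in young (median 4.66), and rose by 1.61 ± 0.25 (SE, adjusted p = 0.000113). Cd53, a tetraspanin of leukocytes whose promoter is printed above, ran from 6.57 to 8.25 in old (median 7.46), against 5.22 to 6.81 in young (median 6.22). Cd53 rose by 1.26 ± 0.21 (SE, adjusted p = 0.000288). For Cd52 9 old arrays lay above every young one, and for Cd53 8 did.

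Ptprc encodes the leukocyte common antigen, a tyrosine phosphatase on the surface of nearly all white blood cells. It ran from 6.39 to 10.59 in old (median 7.37), against 5.62 to 7.02 in young (median 6.14), a difference of 1.34 ± 0.38 (SE, adjusted p = 0.0163). The value of 10.59 came from old replicate 8, the array with the T cell signal, and the next old array was at 8.49. Without old replicate 8 the difference was 1.01 (adjusted p = 0.00666), and without old replicates 8 and 9 it was 0.85 (adjusted p = 0.0114). The call of Ptprc was lost with the atrial index described below as a covariate (adjusted p = 0.245) and in the fit that leaves out the 7 old arrays of high Myl7 (adjusted p = 0.0808). Cd52, Cd53 and Itgb2 were also highest in old replicate 8, and without it they differed by 1.48, 1.16 and 1.53.

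Of the 4 listed subunits of the phagocyte oxidase, which makes superoxide in the phagosome, 2 were tested and neither passed. Cybb, its catalytic subunit, ran from 3.75 to 7.01 in old (median 5.75), against 3.38 to 5.50 in young (median 4.78). Its difference of 0.96 was near the median of the tested members, but the old arrays spread widely (SD 1.13 in old, 0.67 in young) and the test was not passed (95% interval 0.18 to 1.74, adjusted p = 0.0804). Old replicates 7 and 8 were the lowest old arrays for Cybb. It passed when either was left out, and without replicate 8 the difference was 1.17 (adjusted p = 0.0222). Cyba, the membrane partner that many cell types make, had the smallest difference of the tested members. It ran from 7.68 to 8.46 in old (median 7.99), against 7.27 to 8.19 in young (median 7.86), a difference of 0.30 (95% interval 0.03 to 0.56, adjusted p = 0.112). With the array set as a block, a fit whose p-values are too small because the sets were found on these values, Cybb and Cyba were both called (adjusted p = 0.00248 and 0.00912).

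The cytosolic oxidase subunits Ncf1 and Ncf4 were not tested. Ncf1 was above 4 in 3 old arrays and 0 young ones, with 3.57 to 4.55 in old (median 3.68) and 2.93 to 3.68 in young (median 3.64). Ncf4 was above 4 in 4 old arrays and 0 young ones, with 3.29 to 4.86 in old (median 3.61) and 2.89 to 3.44 in young (median 3.25). Without the filter Ncf4 was called higher (difference 0.60, adjusted p = 0.0329) and Ncf1 was not (0.32, adjusted p = 0.0579).

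All 3 actin regulators rose. Lcp1, which encodes the actin-bundling protein L-plastin of leukocytes, had the smallest p among the members after Lgals3. It ran from 8.33 to 9.57 in old (median 8.78), against 7.28 to 8.31 in young (median 7.83), with no overlap and a difference of 1.05 ± 0.15 (SE, adjusted p = 3.91e-05). Coro1a, a coronin that steadies actin during phagocytosis and in T cells, ran from 6.69 to 9.94 in old (median 7.40), against 5.12 to 6.51 in young (median 6.03). Coro1a also had no overlap, and it rose by 1.73 ± 0.31 (SE, adjusted p = 0.000531). Its highest value was again that of old replicate 8, and without that array the difference was 1.47 (adjusted p = 8.55e-05). In that fit 21 members were called higher, against 10.4% of all genes.

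Aif1, known as a microglia and macrophage marker that binds calcium and actin, moved less. It ran from 5.16 to 6.40 in old (median 5.55), against 4.58 to 5.50 in young (median 5.21), and rose by 0.47 ± 0.15 (SE, adjusted p = 0.0305). This call depended on single arrays. It was lost without old replicate 6 or without young replicate 14, 18 or 19, with a highest adjusted p of 0.0583, and after quantile normalization (difference 0.36, adjusted p = 0.110).

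Of the 6 lysosomal and secreted effectors, all tested, 5 rose. Lyz2, the lysozyme of macrophages and neutrophils, had the highest signal of the members, which does not rank it by abundance because probe sets bind with different strength. It ran from 10.88 to 12.25 in old (median 11.36), against 10.22 to 10.96 in young (median 10.41), and rose by 0.92 ± 0.16 (SE, adjusted p = 0.000329). Lyz2 has a near copy in Lyz1, and how far the probes tell them apart was not tested. Ctss, a lysosomal cysteine protease that prepares antigens, ran from 9.35 to 11.11 in old (median 10.17), against 8.71 to 9.55 in young (median 9.15). It rose by 0.99 ± 0.19 (SE, adjusted p = 0.000797). For Lyz2 and for Ctss 8 old arrays lay above every young one.

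Cd68, a glycoprotein of lysosomes and endosomes, ran from 5.89 to 7.08 in old (median 6.68), against 4.70 to 6.13 in young (median 5.57). It rose by 1.16 ± 0.20 (SE, adjusted p = 0.000326), and 9 old arrays lay above every young one. Laptm5, a lysosomal membrane protein of blood cells, ran from 7.58 to 9.90 in old (median 8.27), against 6.81 to 7.77 in young (median 7.26). Laptm5 rose by 1.25 ± 0.23 (SE, adjusted p = 0.000701), while its dimmer passing probe set gave 0.59 (adjusted p = 0.0563 over all passing probe sets).

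Mpeg1, which encodes a pore-forming protein of the phagosome, ran from 6.29 to 8.47 in old (median 7.48), against 5.25 to 6.89 in young (median 6.31). It rose by 1.09 ± 0.26 (SE, adjusted p = 0.00534), and 7 old arrays lay above every young one. Pld4, a nuclease of endosomes and lysosomes despite its phospholipase name, stayed close to the filter. It ran from 4.11 to 5.14 in old (median 4.23), against 3.53 to 4.23 in young (median 4.16), a difference of 0.37 that did not pass (95% interval 0.09 to 0.64, adjusted p = 0.0610).

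Irf8, one of the transcription factors named above, ran from 4.00 to 5.13 in old (median 4.53), against 3.73 to 4.03 in young (median 4.03). It rose by 0.53 ± 0.14 (SE, adjusted p = 0.00833). Most young arrays bunched just above or below the filter's value of 4 (young SD 0.10). Old replicates 1, 2 and 10 lay at the same level (4.02, 4.00 and 4.02). That level may be the floor of this probe set, so detection in young arrays is in doubt and the size of the difference is rough. Irf8 is still counted among the 20 called members. The 7 old arrays with Myl7 above 10 lay at 4.02 to 5.13 (median 4.76) and the other 3 at 4.00 to 4.28 (median 4.02), and without those 7 arrays the difference was 0.12 (adjusted p = 0.598). Spi1 was above 4 in 1 old array and 0 young ones, with 3.04 to 4.11 in old (median 3.07) and 2.93 to 3.37 in young (median 3.08), and was not tested.

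Lgals3, a galectin released by activated macrophages and also made by other cells, had the largest difference of the members. It ran from 6.73 to 11.05 in old (median 9.59), against 3.55 to 5.64 in young (median 4.35), with no overlap and a difference of 4.59 ± 0.51 (SE, adjusted p = 2.71e-06). The old arrays were split. The 7 with Myl7 above 10 lay at 6.89 to 11.05 (median 10.27) and the 3 others at 6.73 to 7.85 (median 7.16), both above the highest young array. Without the 7 arrays Lgals3 differed by 2.85 (limma adjusted p = 0.000408), and with the atrial index as a covariate by 2.90 (adjusted p = 0.000141). Gpnmb, a membrane glycoprotein that rises in lipid-laden macrophages, was above 4 in 3 old arrays and 0 young ones. Its signal was 3.09 to 4.35 in old (median 3.58), against 2.48 to 3.11 in young (median 3.09), and 9 old arrays lay above every young one. Gpnmb was called higher without the filter (difference 0.76, adjusted p = 0.00714).

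**Figure D2:**
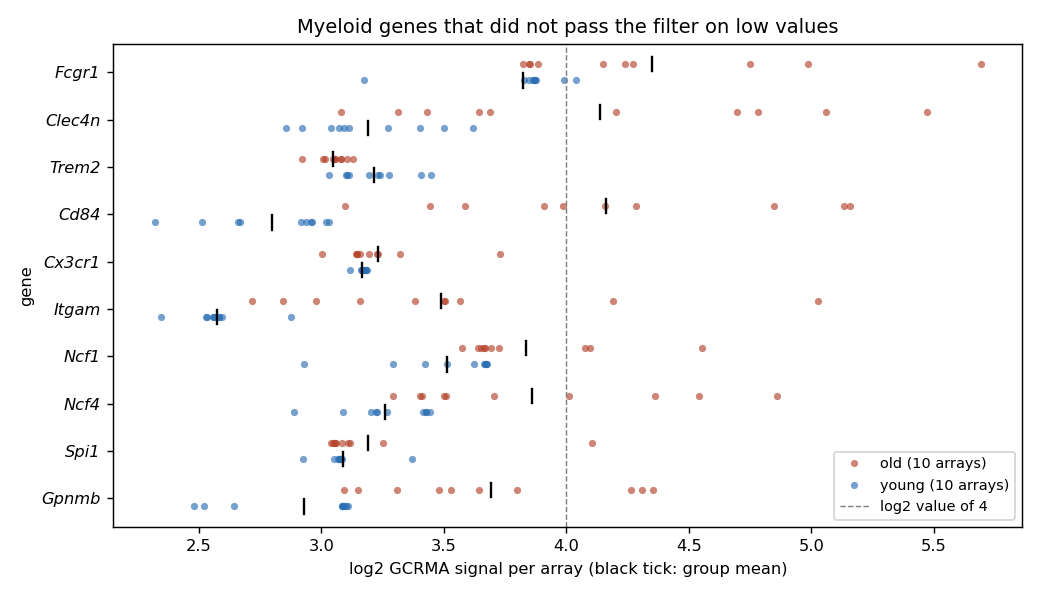
Log2 signal (horizontal axis) of the 10 myeloid genes that did not pass the filter, in the 10 old arrays (red, upper row of each gene) and the 10 young arrays (blue, lower row), with a black tick at each group mean and a dashed line at the filter's log2 value of 4. Trem2 and Cx3cr1 stay below the line in every array, and for Cd84 all old dots lie to the right of all young dots.

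**Figure D3:**
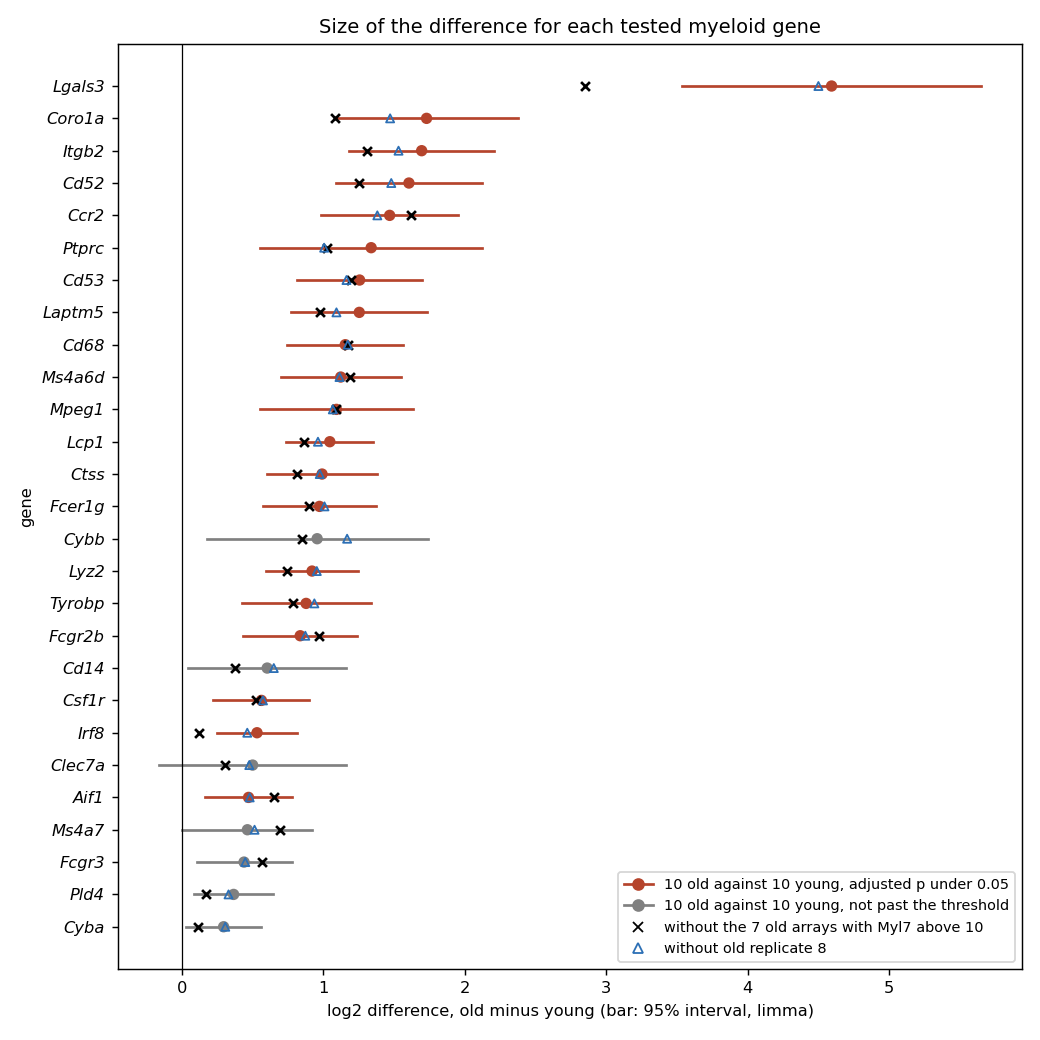
Old minus young log2 difference (horizontal axis) of each tested myeloid gene with its 95% interval from the limma fit of 10 old and 10 young arrays, in red where the adjusted p was under 0.05 and in grey otherwise. Crosses leave out the 7 old arrays with Myl7 above 10 and open triangles leave out old replicate 8. Lgals3 moves to 2.85 without the 7 arrays and Irf8 to 0.12, while all 27 differences stay above 0 under both.

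The old arrays were spread more widely than the young arrays for most tested members. The SD was larger in old for 23 of the 27 tested members, against 61.5% of all tested genes, with a median SD of 0.57 in old and 0.42 in young. Signals near the floor have a small SD, which limits this count. Ccr2, above 4 in no young array, had a young SD of 0.16, and Irf8, whose young arrays may lie at the floor, had 0.10. Taken as the median over the members of the difference from the young mean, the old arrays ran from 0.33 in replicate 7 and 0.40 in replicate 4 to 1.41 in replicate 1 and 1.73 in replicate 9. The young arrays ran from -0.38 in replicate 12 to 0.48 in replicate 11. Old replicate 7 was above every young array for 7 members and old replicate 4 for 10, whereas old replicates 1, 5, 6 and 9 were above every young array for 25 of 27.

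The highest old array differed by gene. Old replicate 8 was highest for Ptprc, Cd53, Cd52, Itgb2, Lcp1, Coro1a, Laptm5 and Irf8, genes that lymphocytes also make. Old replicate 9 was highest for 10 others, among them Tyrobp, Fcer1g, Ccr2, Lyz2, Ctss and Lgals3. Without both arrays 19 of 27 members were called higher, against 9.49% of all genes, 18 of them among the 20. Csf1r (0.50, adjusted p = 0.0513) and Aif1 (0.46, adjusted p = 0.0638) were then not called, Cybb was (1.04, adjusted p = 0.0458), and the median difference was 0.86.

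**Figure D4:**
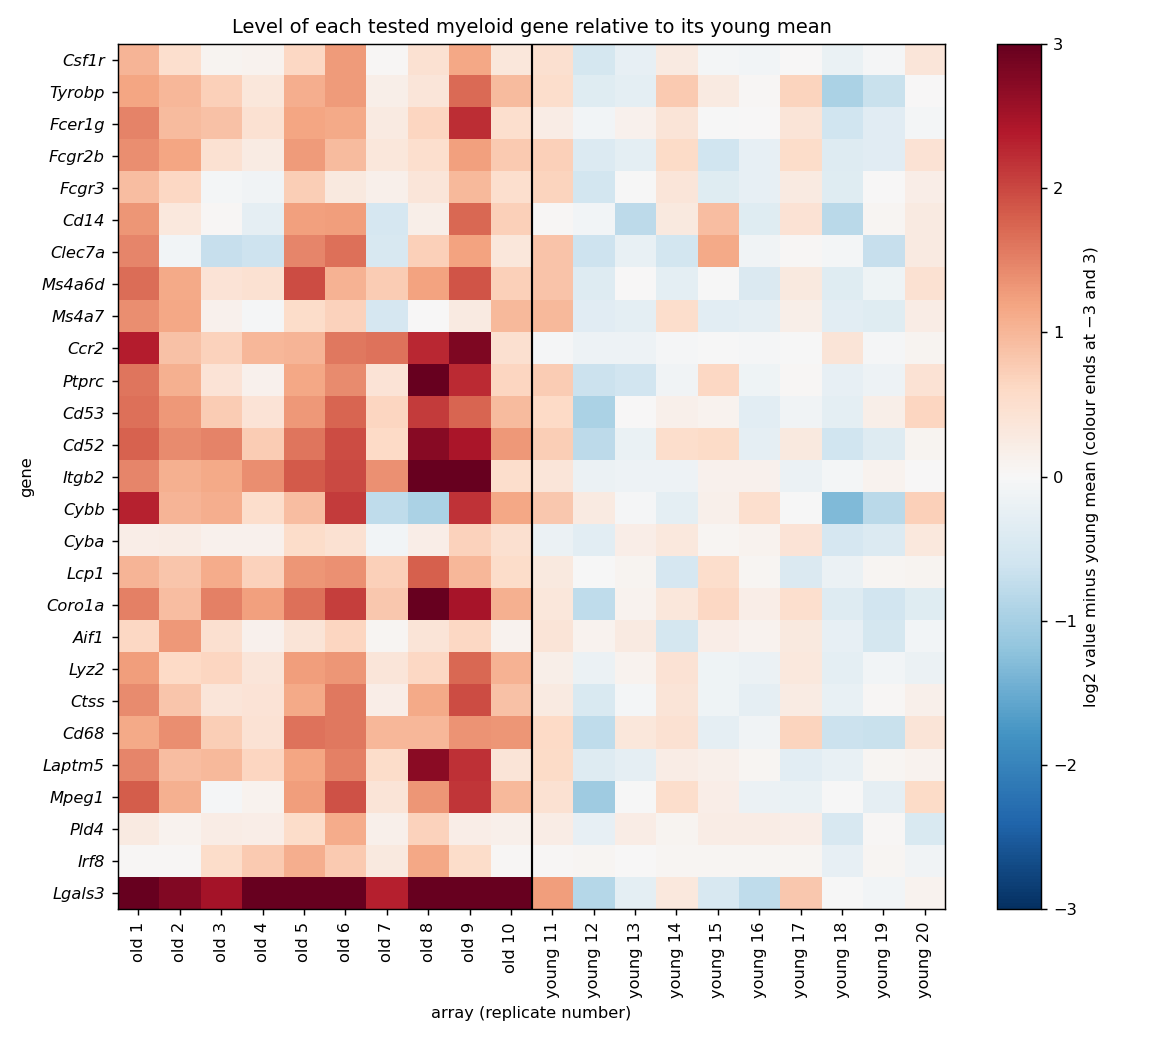
Log2 signal of each tested myeloid gene (rows) in each array (columns, old left and young right of the line) minus that gene's young mean, in red where higher and blue where lower, with a colour scale that ends 3 units to either side of 0. Old replicates 1, 5, 6 and 9 are red in nearly every row, old replicates 4 and 7 are pale except for Lgals3 and a few others, and values past the red end of the scale are those of Lgals3 in 7 old arrays and of Ptprc, Itgb2 and Coro1a in old replicate 8.

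Fewer members passed in the fits that took account of atrial transcripts. With the atrial index, a score from Myl7 and Sln, as a covariate, 9 of 27 members were called higher, against 2.81% of all genes, and the median difference was 0.84. Those 9 were Lgals3, Lcp1, Ccr2, Itgb2, Cd52, Cd53, Cd68, Ms4a6d and Laptm5, and the 11 others of the 20 had adjusted p values of 0.0502 to 0.308. The index was high in old arrays alone, so it and age are poorly separated. Without the 7 arrays 12 members were called in the limma fit of 3 old and 10 young arrays, against 2.25% of all genes, with a median difference of 0.86. These were the 9 and Coro1a, Fcer1g and Lyz2. Aif1, Csf1r, Ctss, Fcgr2b, Irf8, Mpeg1, Ptprc and Tyrobp lost the call in both fits, with adjusted p values of 0.0595 to 0.598 without the 7 arrays. All 27 estimates stayed above 0 in both fits. In old replicates 1, 2 and 7, which had Myl7 at 2.36, 8.27 and 6.58, all 3 values lay above every young array for Ccr2, Itgb2, Lcp1, Coro1a, Cd68 and Lgals3. The share of all genes for which this holds was not computed, and 3 arrays clear the young range more easily than 10 do. Ccr2 had passed the filter through the old arrays alone, so this list is a description. With the array set as a block 26 members were called, all but Clec7a, against 19.4% of all genes. The sets were found on these same values, which makes the p-values of that fit too small. The scaling between arrays changed few calls among the members, with 19 after quantile normalization (8.73% of all genes), 19 after centring each array on the tested genes (8.86%) and 22 after centring on the array median (12.3%).

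Of the kinases, phosphatases and adaptors that act below Tyrobp and Fcer1g, 4 of 12 were tested and 0 passed. Over all 9275 genes tested, 11.2% were called higher and 7.49% lower, the shares to set beside the counts of this and the following lists. With 4 genes tested, 0 calls do not set this list apart from all genes. Syk, the kinase that binds the phosphorylated adaptors, was at 5.99 ± 0.49 in old arrays and 5.60 ± 0.16 in young arrays (mean ± SD, n = 10 each), which is a difference of 0.38 (adjusted p = 0.0919). The inhibitory phosphatases Inpp5d and Ptpn6 differed by 0.37 (adjusted p = 0.0730) and 0.41 (adjusted p = 0.150), and Plcg2, a phospholipase, by -0.08 (adjusted p = 0.638). Ptpn6 lay at 4.23 to 4.47 in young arrays and had an old median of 4.40, a level that may be the floor of its probe set. Its highest value, 6.14, was that of old replicate 8. Of 6 oxidase partners 1 was tested, Rac1, a small GTPase of all tissues, at 0.25 (adjusted p = 0.121). No listed relative of the Fc receptor and C-type lectin members passed the filter.

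Of 8 growth factors and their receptors, 2 of 3 tested genes rose and 0 fell. Csf1, the growth factor for Csf1r, was at 7.61 ± 0.26 in old arrays and 7.16 ± 0.20 in young arrays (mean ± SD, n = 10 each). Csf1 rose by 0.45 (adjusted p = 0.00558). This call was lost with the mean of its passing probe sets and in both fits that took account of atrial transcripts (limma adjusted p = 0.0719 to 0.137). Csf2ra, a receptor chain for another growth factor, rose by 0.35 (adjusted p = 0.0179). Its call was lost in both of those fits, after quantile normalization and after centring on the tested genes. Csf3r, the third tested gene, was at 0.21 (adjusted p = 0.361). Among 9 integrin partners and ligands, 3 of 6 tested genes rose and 0 fell. Icam1, the endothelial ligand of the Itgb2 integrins, was at 6.77 ± 0.53 in old and 5.04 ± 0.33 in young, a rise of 1.73 (adjusted p = 2.05e-06). Vcam1, a ligand of another leukocyte integrin, rose by 1.35 (adjusted p = 7.99e-06), and Fermt3, which activates integrins in blood cells and platelets, by 2.07 (adjusted p = 0.000262). Selplg, a selectin ligand of leukocytes, was at 0.59 and did not pass (adjusted p = 0.0852).

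Of the 5 listed chemokine ligands of Ccr2 and Cx3cr1, 3 were tested and 2 were called higher, Ccl8 among them. Cx3cl1, the ligand of Cx3cr1, rose by 0.61 (adjusted p = 0.00915) while its receptor was not detected. Ccl8 was above 4 in 10 old arrays and 1 young array, so the old arrays were enough for it to pass the filter. Its difference of 3.62 (adjusted p = 5.49e-10) is therefore given as a description. Ccl2, the main ligand of Ccr2, was at 5.65 ± 0.75 in old arrays and 5.02 ± 0.47 in young arrays (mean ± SD, n = 10 each), and its difference of 0.63 did not pass (adjusted p = 0.0943).

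Of 9 other transcription factors of the myeloid lineage 4 were tested, with 1 higher and 1 lower. Maf, a factor of resident macrophages and other cells, rose by 0.61 (adjusted p = 0.00220). Mitf, which also has a cardiac muscle form, fell by 0.35 on the log2 scale (adjusted p = 0.0411). This call was lost without old replicate 4, 5, 6, 8 or 9 or young replicate 11, 14, 17 or 20 (highest adjusted p = 0.0777), after median centring and in both fits that took account of atrial transcripts. Both of those fits also lost the higher calls of Csf1, Csf2ra, Cx3cl1, Apoe, Lipa, Fabp5 and Lbp. Among the markers of other cells below, both fits lost S100a8, S100a9, Tcf21, Lum, Dcn, Dpt, Emcn, Alas2 and Slc4a1. Ms4a6b lost its call without the 7 old arrays of high Myl7. Cebpb (-0.53, adjusted p = 0.114) and Runx1 (-0.09, adjusted p = 0.669) did not pass.

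Of 10 lipid-handling genes that accompany Trem2 and Gpnmb in macrophages, 8 were tested, 4 rose and 0 fell. These were the tetraspanin Cd9 (1.37, adjusted p = 5.43e-05), the lipid carrier Apoe (1.12, adjusted p = 0.00103), the fatty acid binding protein Fabp5 (0.60, adjusted p = 0.0367) and the lysosomal lipase Lipa (0.48, adjusted p = 0.0164). Other heart cells make these genes as well. Of 6 relatives of the Ms4a members 2 were tested, with Ms4a6b higher by 0.90 (adjusted p = 0.00620) and Ms4a6c at 0.30 (adjusted p = 0.178). Of 5 partners of Cd14 in lipopolysaccharide sensing 4 were tested. Lbp, the binding protein for lipopolysaccharide, rose by 0.85 (adjusted p = 0.0270), while Myd88 (0.17, adjusted p = 0.320), Tlr4 (0.20, adjusted p = 0.477) and Ly96 (0.24, adjusted p = 0.577) did not pass. The call of Lbp was lost without old replicate 5 or young replicate 19 (highest adjusted p = 0.0539), and that of Fabp5 in 10 of the 20 fits without 1 array (highest adjusted p = 0.0686).

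Marker lists of single cell types, those of monocytes and resident macrophages included, did not all move with age. Most lists held genes called higher, but the T and natural killer cell, dendritic cell and ventricular muscle lists held none. The share to set beside the counts that follow is the 11.2% of all 9275 genes tested that were called higher. Classical monocyte markers, a list of 7 that holds Ccr2 itself, had both other tested genes higher, and their summed linear signal was 308 to 1007 in old and 113 to 172 in young. Vcan, a matrix proteoglycan that monocytes make, rose by 1.87 (adjusted p = 1.14e-05) and Fn1, fibronectin, by 1.51 (adjusted p = 0.000177), and fibroblasts make both. Resident macrophage markers had 6 of 7 tested genes higher of 8 listed, with a summed signal of 1708 to 2835 in old and 815 to 1439 in young. F13a1, a transglutaminase chain, rose by 1.01 (adjusted p = 3.16e-07), Lyve1, a hyaluronan receptor, by 1.49 (adjusted p = 4.94e-06) and Mrc1, the mannose receptor, by 0.65 (adjusted p = 0.000194). Vsig4, a complement receptor, was above 4 in no young array and passed the filter through the old arrays alone, so its difference of 3.84 is a description. Without it 5 of 6 tested resident macrophage markers were higher. The summed signals of both lists did not overlap between the groups, but no share over all genes was computed to set beside that. The monocyte sum holds Ccr2, Vcan and Fn1, and the resident macrophage sum holds Vsig4. The monocyte markers Plac8 and Chil3 were above 4 in 4 and 2 old arrays and 0 young ones, and were not tested.

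Neutrophil markers had 2 of 3 tested genes higher of 12 listed, and their summed signal overlapped, at 259.6 to 2129 in old and 84.6 to 980.1 in young. S100a9 and S100a8, calcium-binding proteins that monocytes share, rose by 2.45 (adjusted p = 0.00839) and 2.24 (adjusted p = 0.00874), while the granule genes Mpo, Elane, Ltf, Camp and Ngp were above 4 in no array. For B cells, Ighm, the heavy chain of IgM, rose by 1.79 (adjusted p = 0.000300), the 1 tested gene of 7 listed. The summed B cell signal, which holds Ighm, was 186 to 1623 in old and 70.4 to 145 in young. No share over all genes was computed to set beside this lack of overlap. The other B cell markers Cd79a, Pax5 and Cd22 were above 4 in no array. Cd79b was above 4 in 2 old arrays and 0 young ones, and Ms4a1 in 4 old and 2 young arrays, so neither was tested. Cd8a, the 1 tested T and natural killer cell marker of 9, was at 0.31 (adjusted p = 0.551), and its highest value of 7.94 lay in old replicate 8. The dendritic cell markers Flt3, Xcr1 and Itgax were above 4 in no array, Zbtb46 was at -0.36 (adjusted p = 0.160) and no mast cell marker was tested.

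Platelet markers other than Clec1b had 2 of 2 tested genes higher of 7 listed in all, with Ppbp higher by 3.53 (adjusted p = 2.65e-05) and Pf4 by 1.53 (adjusted p = 0.000354). Clec1b was above 4 in no young array and also passed through the old arrays alone, with a difference of 4.16 given as a description. Red cell markers had 2 of 2 tested genes higher of 4, Alas2 by 1.85 (adjusted p = 0.0102) and Slc4a1 by 2.41 (adjusted p = 0.0321), with a summed signal of 337 to 17099 in old and 211 to 503 in young. Fibroblast markers had 4 of 6 tested genes higher, led by the transcription factor gene Tcf21 (0.88, adjusted p = 0.00839), with Lum (0.63), Dcn (0.58) and Dpt (0.41) of the matrix after it. Endothelial markers had 1 of 6 higher, Emcn (0.38, adjusted p = 0.0474), and ventricular muscle markers 0 of 6, with 219080 to 254373 in old and 230610 to 260201 in young. The calls of Slc4a1 (without old replicate 1, 4 or 5), Dpt (without old replicate 6, 8 or 9 or young replicate 12, 15 or 16) and Emcn (in 15 of the 20 fits without 1 array) also depended on single arrays. Blood left in the tissue carries monocytes, platelets and red cells together, and its part in the members' differences was not tested.

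**Figure D5:**
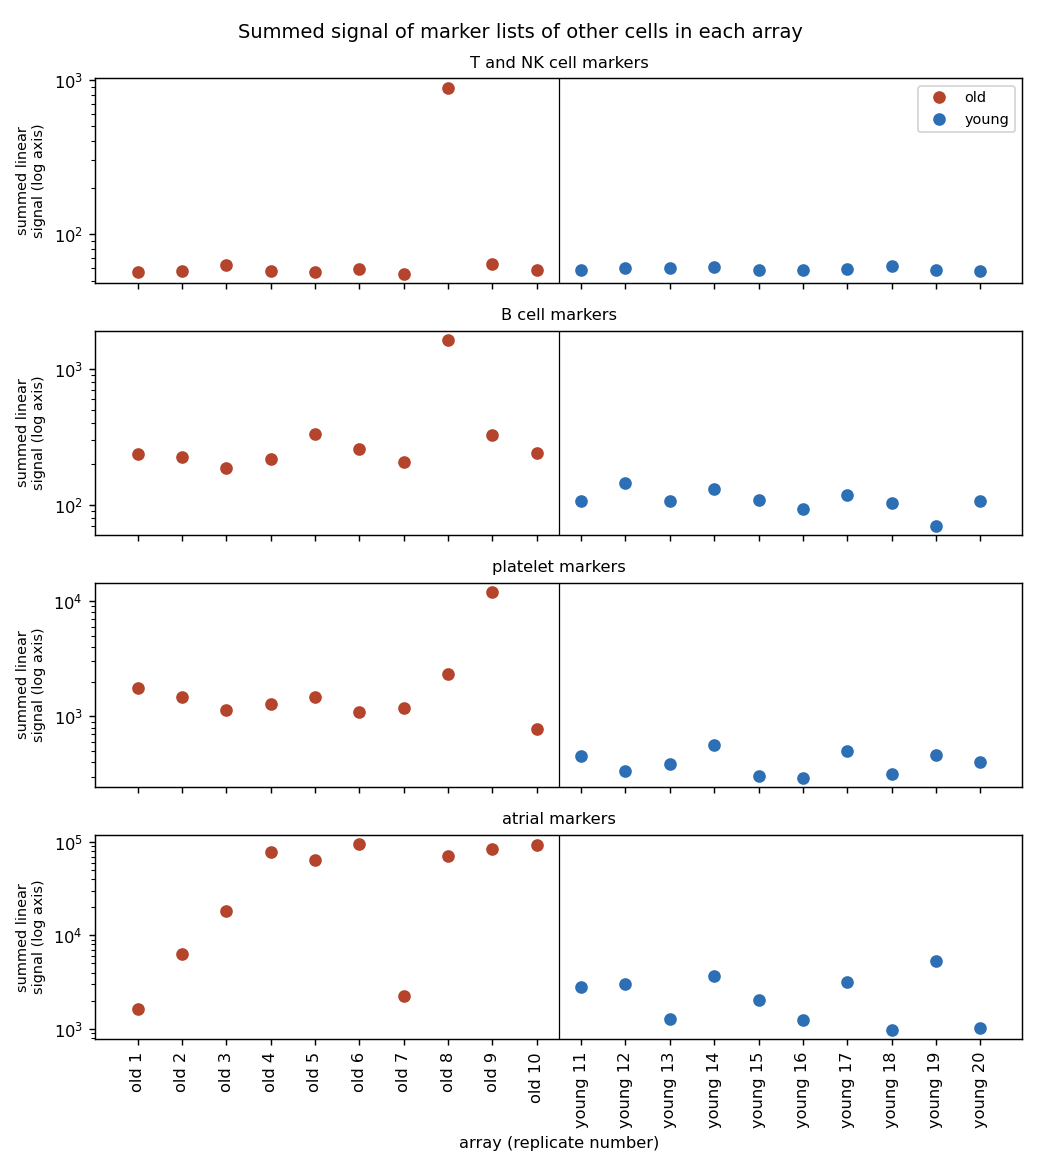
Summed linear signal (vertical log axes) of marker genes of T and natural killer cells, B cells, platelets and atrial muscle in each array, with old arrays (red) left and young arrays (blue) right of the line. Old replicate 8 reaches 886 for T and natural killer cells and 1623 for B cells, old replicate 9 reaches 12019.8 for platelets, and the atrial signal reaches 94948 in old replicate 6, against at most 5307 in the young arrays.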

How the data were processed

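The deposited table holds 1 log2 value per probe set and array, made by the authors with GCRMA per the submitters' processing notes. This method subtracts a background modelled from the letters of the probes, scales the arrays to one another and joins the probes of a set. No source used here gives its version or log base, and log2 was read from the values (0.98 to 16.0). Undetected transcripts pile up at a floor, which shrinks the differences of dim genes or makes them steep once 1 group leaves it. The floor differs between probe sets and may lie above 4, as it may for Cd8a with its narrow young range (4.42 to 4.54). A value above 4 is thus no proof of detection. The number of arrays limits the precision. Groups came from the titles; the series' design text calls both ages young, read as a slip because the protocols separate them. Nothing beyond the count of mice says how tissue was taken, so p-values measure the spread between these samples.

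Of 45101 probe sets, 64 were controls, 34945 had 1 gene in the platform annotation, 932 several and 9160 others none here. Names were updated through a GRCm38.p6 gene table, used for names alone. Each gene was read from its probe set above 4 in at least 10 arrays with the highest mean, giving 9275 genes; of 69 probe sets of members 36 passed. Those of Fcgr2b, Laptm5, Aif1 and Ms4a6d carry the maker's suffix for probe sets that may bind other transcripts too. Old and young were compared with limma 3.58.1 (lmFit, eBayes) in R 4.3.3, no covariate, two-sided, Benjamini-Hochberg over all genes. Adjusted p values without a named setting belong to this fit. On simulated data with 200 of 9275 genes changed, 56% were recovered at a log2 difference of 0.5 and 95% at 1. Array sets came from clustering residuals (cluster 2.1.8.1, mean silhouette 0.35). For the atrial index, the linear signals of Myl7 and Sln were each divided by their highest array and averaged. Summed signals add linear values over a list, 1 probe set per gene.

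Members, lists, tests and alternatives were chosen with earlier results of these data known. Every member is described; of each other list, up to 4 tested genes with the smallest p are named, plus defining markers. Motifs were searched on both strands. Alternatives were other scalings, filters and probe set rules, the set block, the atrial index, and leaving arrays out; centring on the tested genes and leaving out old replicates 8 and 9 were added after seeing the data.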

Additional observations from a re-analysis of the deposited data

Results flagged for a closer look

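In each group of 10 arrays, the highest and the lowest value of each tested member were compared with their nearest neighbour, and a value is listed here where that gap exceeded 0.466 of the group's whole range. This happened for 6 values in 54 groups, and chance gives it in about 1 of 20 groups. Old replicate 8 was high for Ptprc (10.59, next 8.49) and for Coro1a (9.94, next 8.37). The same array had a summed T and natural killer cell signal of 886 and a B cell signal of 1623, and the part of these cells in its Ptprc and Coro1a signals was not tested. Old replicate 2 was high for Aif1 (6.40, next 5.74). Young replicate 18 was high for Ccr2 (3.95, next 3.65) and low for Irf8 (3.73, next 3.87), both under the detection value of 4. Young replicate 12 was low for Mpeg1 (5.25, next 6.05), and it was the lowest young array for 13 of the 27 tested members.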

How the results depend on the processing

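Of the 20 called members, 9 were left by the atrial index and 12 by leaving out the 7 old arrays, which drops most of the old group, and the count was 19 to 21 when single arrays were left out. Over all genes, 1732 calls became 4345 with no filter, 3344 with the set block, 347 with the index, 272 without the 7 arrays, and 1391 to 1830 without single arrays. The 15 called pathway genes became 23, 7 and 6 with no filter, the index and without the 7 arrays (13 to 16 without single arrays), and the 24 called markers of other cells became 13 with the index and 11 without the 7 arrays (22 to 24 without single arrays). Except where stated, the cause of these changes was not tested. The members' median difference was 0.84 to 1.08 without single arrays. Quantile normalization and centring on the tested genes each left 19 members called, without Aif1, and median centring 22, with Fcgr3 and Pld4 added. The share of all calls that were higher in old was 59.9%, and 43.2% after quantile normalization, 41.9% after centring on the tested genes and 29.9% with no filter. No tested member's overall difference changed sign under any alternative over all arrays or with arrays left out, while within sets Clec7a was at -0.22 in set 2. Leaving out single arrays lost Aif1 in 4 fits and gained Fcgr3 in 3, Cybb in 2 and Pld4 in 1. No paired analysis was possible because the groups share no replicate number. Signal near the floor limits the 10 untested members, of which 2 were above 4 in no array.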
